A study of Mus musculus with 8 samples.

Results

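The genes described here encode the translation initiation factors (eIFs) and elongation factors (eEFs) of the cytosolic ribosome in mouse liver. They were chosen by name, as the genes whose symbol starts with Eif or Eef and a digit, leaving out the eIF2 kinases (Eif2ak genes) and pseudogenes. The rule took 63 genes of 24547 in the deposited table, and 59 of the 63 had enough counts to be tested. The samples were livers of ICR mice, an outbred strain. The treated group was given a decoction of Psoraleae Fructus at high dose (a herbal medicine made from fruits of Psoralea corylifolia) into the stomach for 30 days, and its 4 libraries are called treated 1 to 4. The control group was given saline over the same time, and its 4 libraries are called control 1 to 4. The labels give no sex, age, mass of drug, hour of collection or batch, and do not say whether each library came from a separate animal, so the spread behind every p-value is that between libraries and may be technical.

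Initiation brings the ribosome, the initiator tRNA and the mRNA together at a start codon. The eIF4 factors bind the mRNA cap and unwind the leader, eIF2 carries the initiator tRNA, and eIF3 holds the assembly on the small ribosomal subunit. In elongation eEF1A delivers aminoacyl-tRNA, the eEF1B subunits recharge it with GTP, and eEF2 moves the ribosome along. Liver makes the bulk of plasma proteins and keeps many of these mRNAs abundant. Several of them, among them those of the elongation factors, start with a run of pyrimidines through which their translation follows the kinase mTOR.

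Total counts per library ran from 16398729 to 20159132 in the treated group and from 15864399 to 19153845 in the control group. Levels are given as CPM, the count relative to the library total after edgeR's TMM scaling, and fold changes are log2, treated minus control. A gene was called at an adjusted p under 0.05 in edgeR's quasi-likelihood test, with Benjamini-Hochberg adjustment over all 12861 tested genes. The 8 hepatocyte markers were found in every library and none was called. Their summed level was 128360 to 146600 CPM in treated libraries and 105140 to 158250 CPM in controls. Most of it was Alb (albumin), and the lowest of them, Trf (transferrin), had 43.0 to 116 CPM in treated libraries and 73.9 to 189 CPM in controls. Markers of other cell types were lower in treated livers for some lists. T, NK and B cell markers had 4 of 6 tested genes called lower and summed to 16.4 to 21.2 CPM in treated libraries, against 26.9 to 73.6 CPM in controls. Macrophage markers had 2 of 8 called lower, sinusoidal endothelial markers 2 of 7 and stellate cell markers 1 of 7. Of all tested genes 3.75% were called lower. Of the cholangiocyte markers none of 3 tested was called. No listed marker was at 0 in all libraries. In bulk tissue fewer cells of a type and less RNA per cell cannot be told apart.

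Most initiation and elongation factors stayed within the spread of the libraries. Of the 59 tested, 3 rose in treated livers, namely Eif3g, Eef1d and Eef1b2, and 2 fell, namely Eif3j1 and Eif4e3. That is 8.47% of the tested factors, against 9.21% of all tested genes called in either direction. The 3 rises were 5.08% of the factors, against 5.46% of all genes, and the 2 falls 3.39%, against 3.75%. The shares therefore stood near those of all genes. The median log2 fold change of the factors was 0.07, against -0.04 over all tested genes, and 62.7% of the factors had a positive value, against 46.7% of all genes. In 17 factors, or 28.8%, the CPM of the groups did not overlap, against 18.9% of all tested genes. Of these, 11 factors lay higher in treated livers, with 10.2% of all genes doing so, and 6 lay lower, with 8.7% of all genes doing so. An unadjusted p under 0.05 was found for 17 of the 59 factors (28.8%) and for 29.4% of all tested genes.

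**Figure D1:**
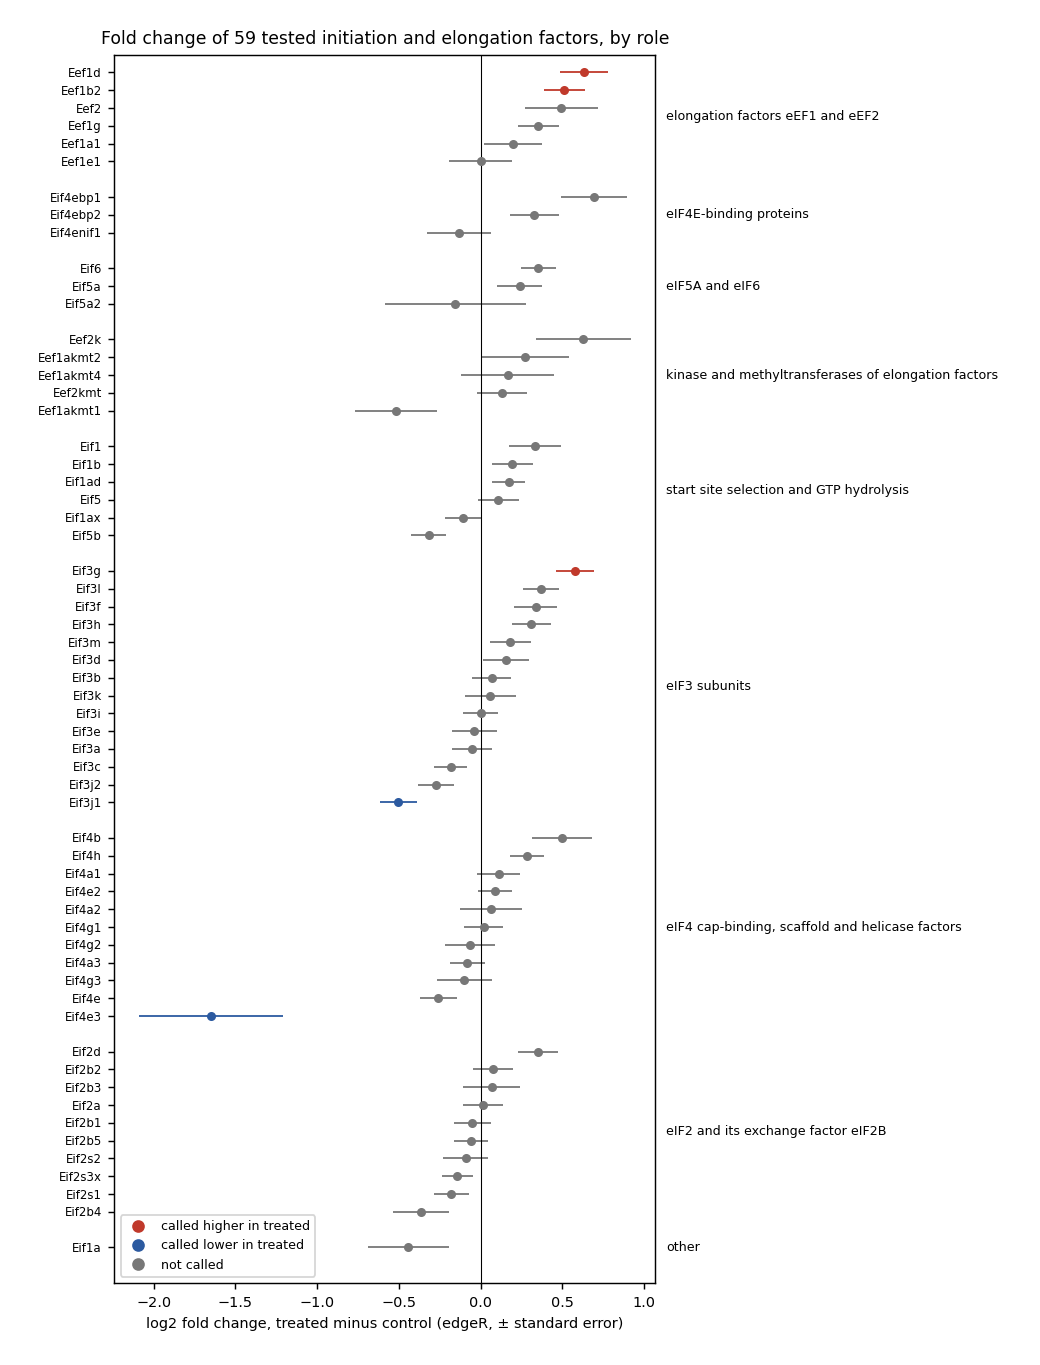
Log2 fold change (treated minus control, x axis) with its standard error for each of the 59 tested factors, grouped by role, with called genes coloured; Eif1a, which the role lists miss, stands under other. The values run from -1.65 for Eif4e3 to 0.69 for Eif4ebp1, and the elongation factors are the group with the highest median, 0.42.

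The letters before the transcription start of the factors that passed the test are shown here so that the genes can be compared with one another and with Eef2. They are RefSeq sequences on GRCm38.p6, from 100 bases before to 20 bases after the annotated start, and 3 of the 5 called factors had an entry. Capitals mark a match to one of 4 motifs that were searched in a window of 300 bases.
Eef1b2, chr1:63176731-63176850, plus strand: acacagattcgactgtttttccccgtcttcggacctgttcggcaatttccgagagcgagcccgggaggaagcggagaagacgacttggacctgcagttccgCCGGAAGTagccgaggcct
Eif3g, chr9:20898571-20898690, minus strand: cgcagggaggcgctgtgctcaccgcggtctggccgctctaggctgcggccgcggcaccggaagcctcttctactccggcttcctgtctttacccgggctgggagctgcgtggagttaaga
Eif3j1, chr2:122028480-122028599, plus strand: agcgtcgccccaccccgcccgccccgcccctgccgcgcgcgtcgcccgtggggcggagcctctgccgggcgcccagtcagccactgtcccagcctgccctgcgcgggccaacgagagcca
Eef2, chr10:81176531-81176650, plus strand: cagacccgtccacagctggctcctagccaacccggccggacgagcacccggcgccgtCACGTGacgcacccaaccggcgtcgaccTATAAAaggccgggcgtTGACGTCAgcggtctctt

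Eef1b2 held CCGGAAGT, a motif bound by ETS family factors, just after its start. Eef2 held CACGTG (the E-box), TATAAA (the TATA box) and TGACGTCA (the cAMP response element), none overlapping another. Eif3g and Eif3j1 held no full match to any of these motifs in the 300-base window. The printed stretch of Eif3g holds ccggaagc, which differs from CCGGAAGT in its last letter only. The motifs were read on both strands, TATAAA on the sense strand only, and a gene with several annotated starts counted if any window held the motif. Over all 27025 genes with an entry, 4.31% held CCGGAAGT, 8.09% CACGTG, 2.03% TGACGTCA and 9.77% TATAAA. Of the 46 tested factors with an entry, 8 (17.4%) held CCGGAAGT, against 8.98% of the 9850 tested genes with an entry. The E-box stood in 13 of the 46 (28.3%), against 11.8% of those genes. TATAAA was in 4 factors (8.7%) and TGACGTCA in 1 (2.17%), against 5.78% and 3.48% of the tested genes. Of the called factors only Eef1b2 held any of the 4. A match is a run of letters and does not show binding.

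Among the 7 elongation factor genes, 6 were tested and 2 rose, with 5.46% of all tested genes called higher. None of the 6 had a negative fold change, with Eef1e1 at 0.00, while 46.7% of all tested genes had a positive one. Eef1d (chromosome 15, 75894205 to 75909556, minus strand) encodes an exchange factor that recharges eEF1A with GTP. It had 97.3, 99.1, 108 and 92.3 CPM in treated 1 to 4, against 83.3, 61.8, 53.0 and 58.2 CPM in control 1 to 4. Every treated library lay above every control, with control 1 the nearest. Its mean was 99.2 ± 6.56 CPM in treated libraries and 64.1 ± 13.3 CPM in controls (SD, n = 4 each), a log2 fold change of 0.63 (SE 0.15, edgeR adjusted p = 0.0307). Without control 1 the fold change of Eef1d was 0.78 (edgeR adjusted p = 0.00981). The call held without control 1 or control 4 and was lost when any of the other 6 libraries was left out. Eef1d shares 4.27% of its exon bases with its neighbour Naprt on the same strand, and Naprt itself was called higher, at a log2 fold change of 0.50.

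Eef1b2 (chromosome 1, 63176825 to 63180486, plus strand) encodes the other exchange factor of the eEF1B complex. The values were 240, 219, 237 and 204 CPM in treated 1 to 4, against 181, 156, 138 and 156 CPM in control 1 to 4. The groups did not overlap, and control 1 was again the highest control. Treated libraries averaged 225 ± 16.6 CPM and controls 158 ± 17.9 CPM (SD, n = 4 each), a log2 fold change of 0.51 (SE 0.13, edgeR adjusted p = 0.0372). This call, too, held without control 1 or control 4 only. Eef1b2 shares 7.31% of its exon bases with the annotated genes Gm27390 and Ndufs1. Set against Eef1a1 in the same library, the deposited FPKM (a level per kilobase of gene length) of Eef1b2 was 0.0397 ± 0.0013 of that of Eef1a1 in treated livers and 0.0323 ± 0.0023 in controls (SD, n = 4 each). The corresponding ratio for Eef1d was 0.0068 ± 0.0005 in treated livers and 0.0050 ± 0.0002 in controls. Neither ratio overlapped between the groups. These ratios were chosen after the values were seen and were not tested.

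Eef1g, the structural subunit of the same complex, stood at 213 to 222 CPM in treated libraries and 139 to 187 CPM in controls. The groups did not overlap, but the log2 fold change of 0.35 (SE 0.13) did not pass the test (edgeR adjusted p = 0.102).

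Eef1a1 and Eef2 were the most abundant factors and made up 54.7% to 56.6% of all counts of the 63 genes in treated libraries and 50.5% to 56.9% in controls. Eef1a1, which delivers aminoacyl-tRNA to the ribosome, had 6009, 5477, 5615 and 5229 CPM in treated 1 to 4, against 6054, 4829, 4165 and 4387 CPM in control 1 to 4. Control 1 was higher than every treated library, and the other controls were lower than all of them. The groups overlapped, with a log2 fold change of 0.20 (SE 0.18, edgeR adjusted p = 0.483). Eef2, the GTPase of translocation (chromosome 10, 81176631 to 81182498, plus strand), had 3022, 3018, 2650 and 2637 CPM in treated 1 to 4, against 3003, 1748, 1658 and 1634 CPM in control 1 to 4. Control 1 lay within the treated range, and the other controls lay between 1634 and 1748 CPM. With all libraries the log2 fold change of Eef2 was 0.49 (SE 0.22) and was not called (edgeR adjusted p = 0.175). Without control 1 it was 0.75 (edgeR adjusted p = 0.0234). The tRNA synthetase-associated Eef1e1 averaged 9.83 CPM in both groups. Eef1a2, the form of muscle and neurons, had 4 counts in treated 4 and 0 in the other 7 libraries.

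**Figure D2:**
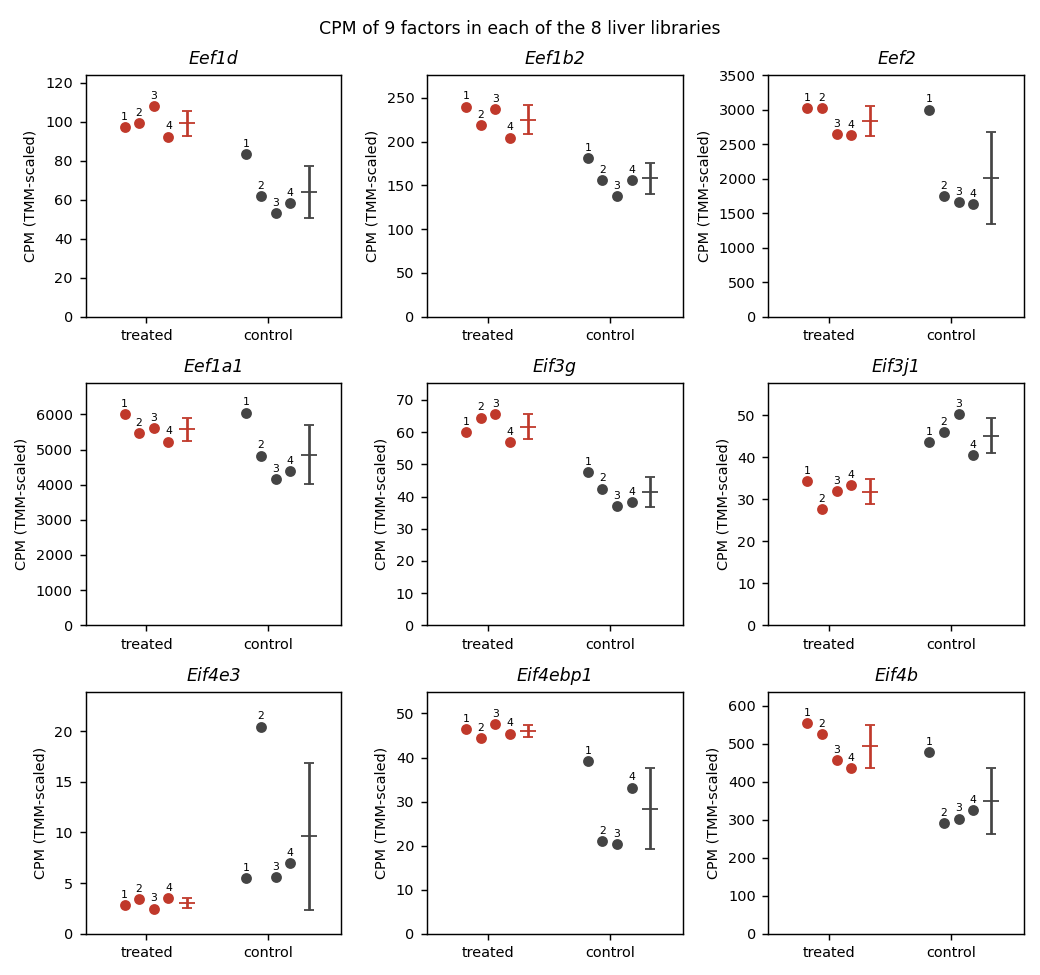
TMM-scaled CPM (y axis, starting at 0) of 9 factors in the 4 treated and 4 control libraries; points carry the library number, and the bar beside each group is its mean with SD. Control 1 sits at 3003 CPM for Eef2 while the other controls sit between 1634 and 1748 CPM, and control 2 sits at 20.4 CPM for Eif4e3.

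Summed over the 7 elongation factor genes, treated libraries held 8386 to 9600 CPM, against 9521 CPM in control 1 and 6163 to 6981 CPM in the other controls. Control 1 was the highest of the controls for 30 of the 59 tested factors, control 2 for 16, control 3 for 7 and control 4 for 6. The same count was not made over all tested genes, so it does not show that this order is particular to the factors. Without control 1, 8 factors were called higher and 2 lower of 60 tested. The share called higher was then 13.3%, against 5.35% of all genes in that fit. The share called lower was 3.33%, against 3.23%, and 16.7% were called in either direction, against 8.58%. The 8 were Eef1d, Eef1b2, Eef2, Eif3g, Eif3f, Eif3l, Eif4b and Eif4ebp1, and the 2 were Eif3j1 and Eif4e3. That library was singled out after its values were seen. With controls 2 and 4 left out together, Eif3j1 was the only one of the 5 factors still called.

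Genes that modify the elongation factors gave no call among 5 tested of 6, with 9.21% of all tested genes called. Eef2k, the kinase that inhibits eEF2, had 11.8, 13.0, 11.5 and 9.5 CPM in treated 1 to 4, against 3.91, 6.77, 6.85 and 12.0 CPM in control 1 to 4. Control 4 lay inside the treated range and the other controls below it. Eef2k had a log2 fold change of 0.63 (SE 0.29, edgeR adjusted p = 0.182), which was 0.97 without control 4 (edgeR adjusted p = 0.0203) and 0.42 without control 1 (edgeR adjusted p = 0.266). The fit without control 4 called 17.8% of all genes. Eef2kmt, a methyltransferase of eEF2, averaged 6.85 ± 0.16 CPM in treated livers and 6.26 ± 0.73 CPM in controls. Eef1akmt1, a lysine methyltransferase of eEF1A, averaged 3.10 ± 0.803 CPM in treated livers and 4.44 ± 0.732 CPM in controls (log2 fold change -0.52, SE 0.25). Eef1akmt2 and Eef1akmt4, further methyltransferases of eEF1A, had fold changes of 0.27 (SE 0.27) and 0.17 (SE 0.28). Eef1akmt4 shares 31.7% of its exon bases with other annotated genes, and Eef2kmt 23.0%. Eef1akmt3 had at most 9 counts in any library and was not tested.

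Of the 14 eIF3 subunits 1 rose, 1 fell and 12 were not called, a share of 7.14% each way, against 5.46% of all tested genes higher and 3.75% lower. Eif3g (chromosome 9, 20894349 to 20898623, minus strand), an RNA-binding subunit, had 60.0, 64.5, 65.5 and 57.0 CPM in treated 1 to 4, against 47.7, 42.5, 37.1 and 38.3 CPM in control 1 to 4. All treated libraries lay above all controls. The mean was 61.8 ± 3.98 CPM in treated libraries and 41.4 ± 4.77 CPM in controls (SD, n = 4 each). The log2 fold change of 0.58 (SE 0.11) gave the smallest adjusted p of the 59 factors (edgeR adjusted p = 0.0184). The call was lost without treated 3 or without control 3 and held in the other 6 fits, where the fold change stayed between 0.54 and 0.65. No exon base of Eif3g is shared with another annotated gene.

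Eif3j1 (chromosome 2, 122028546 to 122056598, plus strand) encodes the loosely bound eIF3j subunit, which sits near the mRNA channel of the small ribosomal subunit. Its values were 34.3, 27.6, 31.8 and 33.3 CPM in treated 1 to 4, against 43.6, 45.9, 50.3 and 40.5 CPM in control 1 to 4. The groups did not overlap. Treated libraries averaged 31.8 ± 2.95 CPM and controls 45.05 ± 4.14 CPM (SD, n = 4 each), a log2 fold change of -0.50 (SE 0.11, edgeR adjusted p = 0.028). Corrected for length and GC content it was -0.27 (edgeR adjusted p = 0.162). The call held without control 1 or control 4 and was lost with any other library left out. Of its exon bases 20.2% are shared with other annotated genes, mostly Spg11 on the opposite strand, and without strand information those reads cannot be assigned. Spg11 itself averaged 13.2 CPM in treated livers and 15.8 CPM in controls. Eif3j2, a close paralog that could share reads with it, had 18.8 to 21.9 CPM in treated libraries and 22.2 to 26.0 CPM in controls. Its groups did not overlap either, at a log2 fold change of -0.27 that was not called (edgeR adjusted p = 0.132).

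Within a library, the FPKM of Eif3g was 5.77 ± 0.86 times that of Eif3j1 in treated livers and 2.72 ± 0.43 times in controls (SD, n = 4 each), without overlap. That pair was chosen after its values were seen, and the ratio was not tested. Of the other subunits, Eif3l stood at 82.6 to 93.7 CPM in treated libraries and 62.9 to 78.5 CPM in controls. Its log2 fold change was 0.37 (SE 0.11, edgeR adjusted p = 0.0634). Eif3f and Eif3h, which carry the MPN domain, had fold changes of 0.34 (SE 0.13) and 0.31 (SE 0.12), each with edgeR adjusted p = 0.124. Eif3c of the core had 119, 125, 127 and 133.6 CPM in treated libraries, against 134.2 to 150 CPM in controls, and its log2 fold change was -0.18 (SE 0.10, edgeR adjusted p = 0.261). Eif3a, the largest scaffold subunit, averaged 190 ± 9.04 CPM in treated livers and 197 ± 20.5 CPM in controls. Eif3b, Eif3d, Eif3e, Eif3i, Eif3k and Eif3m, the remaining subunits, lay between -0.04 (Eif3e) and 0.18 (Eif3m) on the log2 scale. Eif3d shares 43.3% of its exon bases with another annotated gene on the opposite strand. Summed over all 14 subunits, treated libraries held 1218 to 1323 CPM and controls 1099 to 1324 CPM, so the treated range lay within that of the controls.

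**Figure D3:**
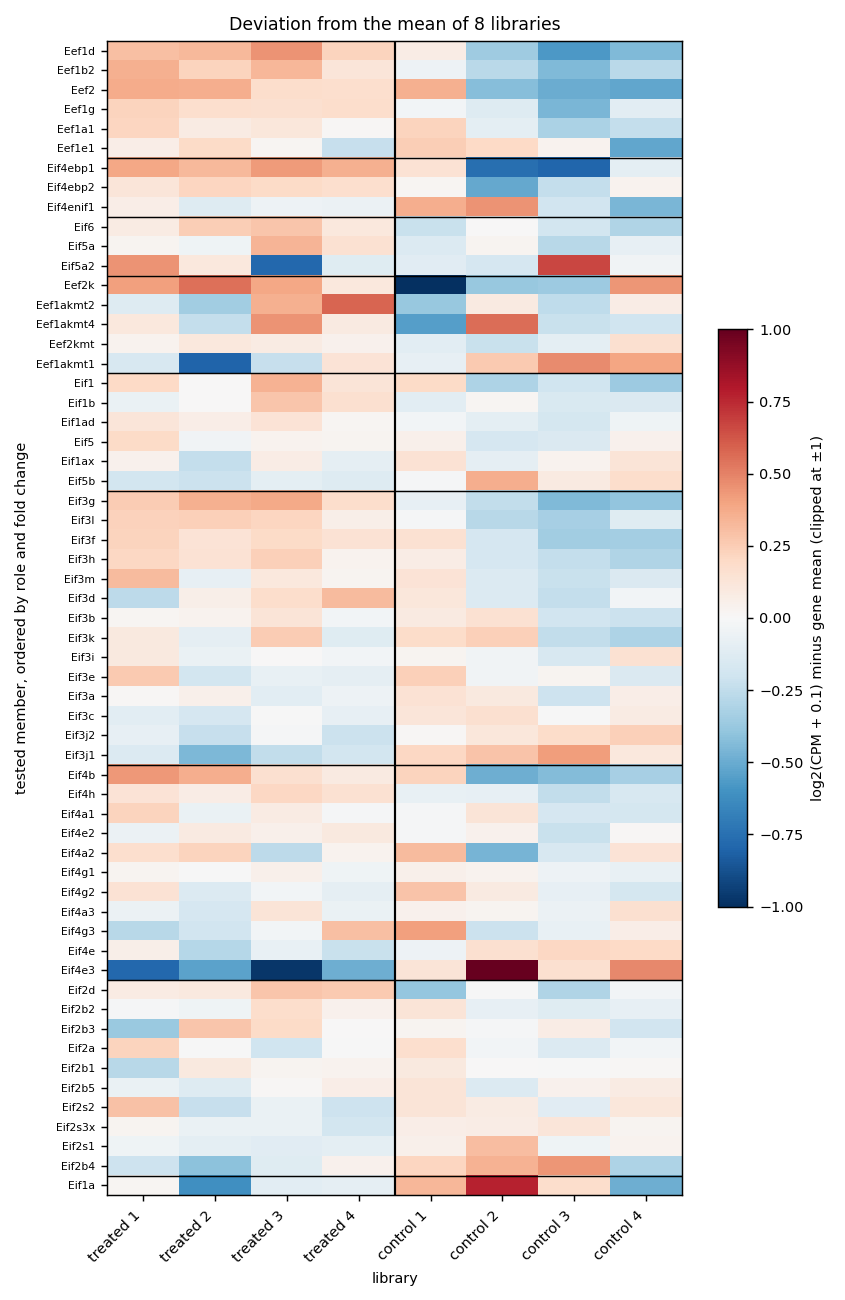
Deviation of log2(CPM + 0.1) of each tested factor (down the page, by role and fold change) from its mean over the 8 libraries (columns, 4 treated and then 4 control); red is above and blue below the mean, clipped at 1. Control 1 is red with the treated libraries for Eef2, Eef1a1 and Eif4b, while Eif3j1 is blue in all 4 treated libraries and red in all 4 controls.

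Among the 11 eIF4 factors that bind the cap or unwind the mRNA leader, 1 fell (9.09%) and none rose. Of all tested genes 3.75% were called lower and 5.46% higher. Eif4e3 (chromosome 6, 99625135 to 99666771, minus strand), a minor cap-binding relative of eIF4E, had 2.85, 3.40, 2.49 and 3.52 CPM in treated 1 to 4, against 5.47, 20.4, 5.59 and 6.98 CPM in control 1 to 4. Every control was above every treated library, and control 2 stood far above the other controls. Its log2 fold change was -1.65 (SE 0.44, edgeR adjusted p = 0.0478), and without control 2 it was -0.96 (edgeR adjusted p = 0.0445). The call was also kept without control 1 or control 4 and was lost without control 3 or any treated library. With the correction for length and GC content the fold change of Eif4e3 was -1.55 (edgeR adjusted p = 0.0728). Eif4e3 was not called with library totals as the only scaling, without a count filter or by limma. Control 2 also had the highest sums of the T, NK and B cell markers (73.6 CPM) and macrophage markers (1262 CPM). The part of these cells in the level of Eif4e3 was not tested. A predicted gene on the same strand shares 14.8% of its exon bases.

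The main cap-binding protein gene Eif4e had 42.8 to 54.3 CPM in treated libraries and 50.4 to 60.2 CPM in controls, a log2 fold change of -0.26 (SE 0.12, edgeR adjusted p = 0.17). Eif4b, a cofactor of the eIF4A helicase, had 555, 526, 457 and 436 CPM in treated 1 to 4, against 479, 292, 303 and 325 CPM in control 1 to 4. As for Eef2, control 1 lay among the treated libraries and the other controls below them. For Eif4b the log2 fold change was 0.50 (SE 0.19, edgeR adjusted p = 0.114) with all libraries and 0.69 without control 1 (edgeR adjusted p = 0.0263). Eif4h, a related cofactor, stood at 166 to 182 CPM in treated livers and 133 to 150 CPM in controls, without overlap (log2 fold change 0.28, SE 0.10, edgeR adjusted p = 0.112).

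The scaffold genes were nearly level between the groups. Eif4g1, which joins the cap-binding protein to eIF3, averaged 454 ± 12.1 CPM in treated livers and 448 ± 19.5 CPM in controls (log2 fold change 0.02, SE 0.12). Eif4g2, a relative that does not bind eIF4E, averaged 648 ± 57.3 CPM in treated livers and 678 ± 95.8 CPM in controls. The helicase genes Eif4a1 and Eif4a2 had log2 fold changes of 0.11 (SE 0.13) and 0.06 (SE 0.19), both within 1 SE of 0. Eif4a3, the helicase of the exon junction complex, stood at -0.08, the scaffold Eif4g3 at -0.10 and the cap-binding relative Eif4e2 at 0.09.

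None of the 3 tested genes for eIF4E-binding proteins was called, with 9.21% of all tested genes called. Eif4ebp1 (chromosome 8, 27260329 to 27276674, plus strand) encodes 4E-BP1, which holds eIF4E off its scaffold until mTOR phosphorylates it. It had 46.4, 44.4, 47.7 and 45.5 CPM in treated 1 to 4, against 39.1, 20.9, 20.4 and 33.2 CPM in control 1 to 4. All treated libraries lay above all controls, and the SD was 1.38 CPM in the treated group and 9.25 CPM in the control group. The log2 fold change was the highest of the 59 factors at 0.69 (SE 0.20), but the test was not passed (edgeR adjusted p = 0.0598). It was called without control 1 (edgeR adjusted p = 0.0215) and without control 4 (edgeR adjusted p = 0.0405). Eif4ebp2, the more abundant relative, stood at 373 to 398 CPM in treated livers and 241 to 352 CPM in controls. The groups did not overlap, with a log2 fold change of 0.33 (SE 0.15, edgeR adjusted p = 0.174). Per library the FPKM of Eif4ebp1 was 2.65 ± 0.23 times that of Eif4e in treated livers and 1.39 ± 0.56 times in controls (SD, n = 4 each). That ratio did not overlap between groups, was chosen after its values were seen and was not tested. Eif4enif1, the protein that carries eIF4E into the nucleus, had 20.4 to 23.3 CPM in treated libraries and 16.2 to 30.5 CPM in controls, and its log2 fold change was -0.13 (SE 0.19). Eif4ebp3 had 5, 3, 0 and 17 counts in treated 1 to 4, against 41, 10, 10 and 4 counts in control 1 to 4, too few to be tested. It shares 67.3% of its exon bases with another annotated gene.

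The list of eIF2 and its exchange factor eIF2B also holds Eif2a and Eif2d. It gave no call among 10 tested genes, with 9.21% of all tested genes called. Its median log2 fold change was -0.06, and the values ran from -0.36 (Eif2b4) to 0.35 (Eif2d). Eif2s3x, the X-linked gamma subunit of eIF2, had 81.8 to 94.5 CPM in treated libraries and 94.6 to 101 CPM in controls. The groups did not overlap, but the fold change of -0.14 (SE 0.10) was not called (edgeR adjusted p = 0.357). With the correction for length and GC content it was 0.01. Eif2s3y, its Y-linked partner, had 0 counts in all 8 libraries, as did the Y-linked genes Ddx3y, Kdm5d and Uty, and a count of 0 allows up to 3 counts in a library. Eif2s2, the beta subunit, averaged 85.5 ± 15.1 CPM in treated livers and 91.1 ± 6.9 CPM in controls. Eif2s1, the alpha subunit that the eIF2 kinases phosphorylate, averaged 49.8 ± 1.04 CPM in treated livers and 56.4 ± 6.23 CPM in controls (log2 fold change -0.18, SE 0.11). Eif2a, Eif2b1, Eif2b2, Eif2b3 and Eif2b5 lay between -0.06 (Eif2b5) and 0.08 (Eif2b2). Eif2d, a factor of ribosome recycling and reinitiation, lay higher in all treated libraries, at 36.0 to 41.2 CPM against 26.0 to 34.0 CPM in controls (log2 fold change 0.35, SE 0.12, edgeR adjusted p = 0.0961). Eif2b4, the delta subunit of the exchange factor, had 25.1 to 34.4 CPM in treated libraries and 26.8 to 45.2 CPM in controls. Its log2 fold change of -0.36 (SE 0.17, edgeR adjusted p = 0.185) became -0.50 without control 4 (edgeR adjusted p = 0.0288).

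The factors of start codon selection and subunit joining also gave no call among 6, with 9.21% of all tested genes called. Eif5b, the GTPase that joins the ribosomal subunits, stood at 55.4 to 59.8 CPM in treated libraries and 63.7 to 82.7 CPM in controls. The groups did not overlap (log2 fold change -0.32, SE 0.11, edgeR adjusted p = 0.0939), and the value was -0.07 with the correction for length and GC content. Of the exon bases of Eif5b 16.8% are shared with Rev1 on the opposite strand. Rev1 lay higher in all treated libraries but was not called (log2 fold change 0.59, edgeR adjusted p = 0.117). Eif1, which guards start codon choice, averaged 469 ± 46.0 CPM in treated livers and 373 ± 68.9 CPM in controls (log2 fold change 0.33, SE 0.16, edgeR adjusted p = 0.202). Eif5, which triggers GTP hydrolysis on eIF2, averaged 302 ± 20.9 CPM in treated livers and 280 ± 22.7 CPM in controls. Eif1b, Eif1ad and Eif1ax, relatives of eIF1 and eIF1A, had log2 fold changes of 0.19, 0.17 and -0.11, and only Eif1ad had groups without overlap. Eif1a, the autosomal eIF1A gene, had 73.7 to 114 CPM in treated libraries and 80.1 to 192 CPM in controls (log2 fold change -0.44, SE 0.25). It was called without control 4, at -0.62 (edgeR adjusted p = 0.0469), and stood at -0.21 without control 2 (edgeR adjusted p = 0.584).

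Eif6, which keeps the large ribosomal subunit from joining too early, lay higher in every treated library, at 49.4 to 56.5 CPM against 37.8 to 46.8 CPM in controls. The log2 fold change was 0.35 (SE 0.11, edgeR adjusted p = 0.0678), and 0.15 with the correction for length and GC content. Eif5a, the hypusine-bearing factor that relieves ribosome stalling, averaged 328 ± 38.7 CPM in treated livers and 278 ± 24.6 CPM in controls (log2 fold change 0.24, SE 0.14, edgeR adjusted p = 0.272). Its relative Eif5a2 was below 1.1 CPM in every library.

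Compared per length, in the deposited FPKM, Eef1a1 led with 2205 ± 162 FPKM in treated livers and 1974 ± 312 FPKM in controls, followed by Eef2 with 841 ± 97.2 FPKM in treated livers and 609 ± 176 FPKM in controls (SD, n = 4 each). Eif1 came next, at 220 ± 13.3 FPKM in treated livers and 179 ± 26.4 FPKM in controls, and then Eif5a, at 135 ± 10.3 FPKM in treated livers and 119 ± 17.0 FPKM in controls. By FPKM the most abundant eIF3 subunit was Eif3h, at 93.2 ± 6.27 FPKM in treated livers and 77.3 ± 8.31 FPKM in controls. Eif3g stood at 30.7 ± 2.45 FPKM in treated livers and 21.2 ± 2.54 FPKM in controls. By CPM Eif3a lay above Eif3h, with means over all libraries of 193 and 138 CPM, so the order depends on the gene length used.

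Fold changes in these libraries ran with gene length and GC content. Over all 12861 tested genes the rank correlation of the log2 fold change was -0.24 with length and, over the 12858 genes with a value, 0.31 with GC content. Across the 59 factors it was -0.17 with length and 0.40 with GC content. Genes share libraries here and are not independent. After a per-library correction for both, Eef1d (log2 fold change 0.75, edgeR adjusted p = 0.0319) and Eef1b2 (0.57, edgeR adjusted p = 0.0486) were still called higher, and no factor was called lower. The background was then 4.59% of all genes, 3.14% higher and 1.45% lower. Eif3g had a corrected log2 fold change of 0.41 (edgeR adjusted p = 0.0752). Corrected for length alone, Eef1b2 was not called (log2 fold change 0.47, edgeR adjusted p = 0.0634), while Eef1d and Eif3g were. With the correction for both length and GC content, the median over the factors was 0.16, against 0.02 over all tested genes.

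**Figure D4:**
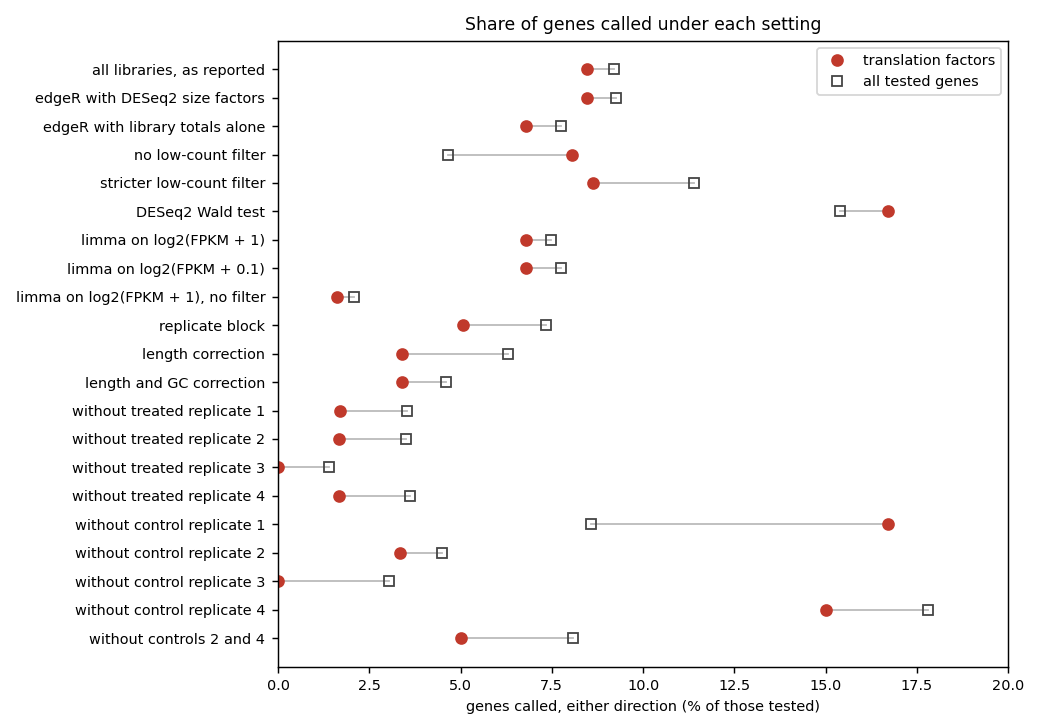
Percentage of genes called in either direction (x axis) among the translation factors (filled circles) and among all tested genes (open squares) with all libraries and under each alternative (y axis). With all libraries the shares are 8.47% and 9.21%; without control 1 they are 16.7% and 8.58%.

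Partner genes of translation outside the family mostly did not pass the test either, while 9.21% of all tested genes were called. None of the 4 eIF2 kinases was called, and Eif2ak1 and Eif2ak2, the most abundant of them, had log2 fold changes of -0.11 (SE 0.11) and -0.15 (SE 0.23). Of 12 tested genes of the integrated stress response none was called, and their most abundant members Atf5 and Ppp1r15b stood at 0.24 each (SE 0.31 and 0.12). Among the 12, 9 had positive and 3 negative fold changes, while 46.7% of all tested genes had a positive one. The median of these stress response genes was 0.24, against -0.04 over all tested genes. With the correction for length and GC content it was 0.08, against 0.02. Atf4, the central factor of that response, chosen after its values were seen, lay higher in all treated libraries without passing the test (log2 fold change 0.44, SE 0.12, edgeR adjusted p = 0.054). Among 16 genes of TOR signalling, Akt1s1, an inhibitory partner of mTOR complex 1, rose to 71.2 CPM in treated livers, against 43.9 CPM in controls (log2 fold change 0.70, SE 0.12, edgeR adjusted p = 0.0122). Of 9 enzymes that modify eIF5A and eEF2, Dohh, which completes hypusine on eIF5A, rose by 0.91 on the log2 scale (SE 0.20, edgeR adjusted p = 0.027). Neither of these calls held with the correction for length and GC content (edgeR adjusted p = 0.0732 and 0.16).

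Of 8 tested termination and recycling factors, Gspt1, the release factor eRF3, fell by 0.35 (SE 0.10, edgeR adjusted p = 0.0497), and with the correction its adjusted p was 0.255 in edgeR. Of 22 genes of cytosolic aminoacyl-tRNA synthetases and their scaffold, Tars, which charges threonine tRNA, fell by 1.07 on the log2 scale (SE 0.13, edgeR adjusted p = 0.00501). It averaged 78.0 CPM in treated livers and 164 CPM in controls, and it was still called with the correction (edgeR adjusted p = 0.0119). In that list 6 of the 22 genes had positive and 16 negative fold changes, while 46.7% of all tested genes had a positive one. The list's median was -0.17, against -0.04 over all tested genes, and -0.09 against 0.02 with the correction. Of 11 mitochondrial translation factors, Tufm, the mitochondrial counterpart of eEF1A, rose by 0.48 (SE 0.13, edgeR adjusted p = 0.0448), a call lost with the correction (edgeR adjusted p = 0.133). None of 8 poly-A and mRNA-end binding partners was called, with Pabpc1 at 376 CPM in treated livers and 391 CPM in controls and Ddx3x at 325 CPM in treated livers and 368 CPM in controls. None of 5 genes of selenocysteine elongation was called, with Sephs2 at 702 CPM in treated livers and 705 CPM in controls and Sepsecs at 77.6 CPM in treated livers and 87.8 CPM in controls.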

How the data were processed

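RNA was extracted with Trizol, and poly-A RNA was made into libraries with the NEBNext Ultra RNA kit, per the labels' protocols. The deposited table gives raw read counts per gene and FPKM values, as its column names state. HISAT2, HTSeq 0.13.5, DESeq2 1.32.0 and the build GRCm38 are named in the submitters' processing notes, without roles, and the annotation release and strand setting were not given in the sources used here. The FPKM in the deposited table equal the count divided by a gene length and the library total, so that length was recovered from them.

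The deposited counts were tested with edgeR 4.0.16 under R 4.3.3. Genes passed filterByExpr (minimum count 10, minimum total 15), TMM factors were applied, and the robust quasi-likelihood F test had the group as its only term. P-values were adjusted by Benjamini-Hochberg over all 12861 genes tested. Standard errors derive from the F statistic. The length and GC correction used per-library splines with 5 degrees of freedom as offsets, with GC content from the longest GENCODE M21 transcript (GRCm38), which matched 24540 of the 24547 genes. The steps were tested on simulated data. No pair of libraries agreed within counting noise.

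The 63 members, their role lists, the pathway lists and the marker lists were chosen with earlier results of these data known. Named are called members, the 10 most abundant, per role the 2 of smallest p and the 2 most abundant, the 5 of largest change, and Eif2s3x and Eif2s3y. Of each pathway list up to 4 called genes are named, or else the 2 most abundant. Other members named were chosen after their values were seen. Alternatives were DESeq2 1.42.0, limma 3.58.1 on log2(FPKM + 1) and log2(FPKM + 0.1) with a mean FPKM of at least 0.5 or no filter, other scalings and count filters, a replicate block, corrections for length alone and for length with GC content, and leaving out libraries.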

Additional observations from a re-analysis of the deposited data

Results flagged for a closer look

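In the named factors, 60 combinations of gene and group were checked for a library standing apart from the other 3 of its group by Dixon's test at the 95% level, and 2 were found. Chance gives about 1 in 20, so 2 of 60 is no more than chance gives. Eef2 in control 1 was at 3003 CPM, against 1634 to 1748 CPM in the other controls. Eif4e3 in control 2 was at 20.43 CPM, against 5.47 to 6.98 CPM in the other controls.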

How the results depend on the processing

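With a library left out in turn, the number of all genes called ran from 183 to 2330, that of factors called higher from 0 to 8 and that of factors called lower from 0 to 4. The low values came without treated 3 or control 3 (0 higher and 0 lower) and the high ones without control 1 (8 higher) and control 4 (5 higher and 4 lower, or 15% of the factors, against 17.8% of all genes in that fit). Without treated 1, 2 or 4, only Eif3g was called, and 3.51% to 3.61% of all genes were; without treated 3 it was 1.4% of all genes and without control 3 it was 3.04%. Without controls 2 and 4 together, the libraries that earlier results set apart, 2 factors were called higher (Eef2k and Eif2d) and 1 lower (Eif3j1). That was 5% of the factors, against 8.07% of all genes in that fit. DESeq2's Wald test called 2153 genes, 1137 higher and 1016 lower. Of 60 factors it called 8 higher (13.3%, against 8.12% of all genes) and 2 lower. In either direction it called 16.7% of the factors, against 15.4% of all genes. The further factors called higher were Eef1g, Eif3l, Eif4ebp1, Eif4h and Eif6. The correction for length and GC content called 590 genes in either direction, 404 higher and 186 lower. Of the 59 factors it called 3.39% higher, against 3.14% of all genes, and 0 lower, against 1.45%. It moved the median of the factors to 0.1586. The correction for length alone called 3.39% of the factors higher and 0 lower, against 4.25% and 2.05% of all genes, and lost Eef1b2. Limma on log2(FPKM + 1) without a filter called 480 genes in either direction (2.09%). It called 1 factor higher and 0 lower (1.61% of the factors). One factor was called lower (1) with library totals alone, without a count filter, with the replicate block and by limma on log2(FPKM + 1) or log2(FPKM + 0.1).

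Same-numbered libraries had correlations of deviations of 0.177, 0.0589, -0.0124 and 0.0697, against -0.2073 to 0.1761 for differently numbered ones. These values cannot show whether equal numbers mark a pair, since both kinds of value lie close together and the labels name no pairing. With the replicate block 944 genes and 3 factors were called (Eef1d and Eif3g higher, Eif4e3 lower). That was 5.08% of the factors, against 7.34% of all genes.

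Among the named factors, signs turned for 6, none of them called in either fit. Length correction gave Eif2s2 0.0251, Eif3a 0.0226 and Eif4g2 0.1094, and length and GC correction gave Eif2s2 0.2267, Eif2s3x 0.0052, Eif3a 0.1196 and Eif4g2 0.1897. Eif4g1 was at -0.027 with library totals alone and at -0.0236, -0.0239 and -0.0236 in the limma fits. Without controls 2 and 4, Eif3a was at 0.0064 and Eif4a2 at -0.039. With a library left out in turn, Eif4a2 ran from -0.0486 (without control 2) to 0.1931 and Eif4g2 from -0.1271 to 0.0275 (without control 1). The cause of these moves was not tested. The 4 untested factors had too few counts for a statement.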
